A study of Drosophila melanogaster with 12 samples.

Results

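UDP-glycosyltransferases and glutathione S-transferases were followed in heads of adult *y w* flies kept in the dark. Arrays covered the last day of entrainment to a thermocycle of 18 and 25 °C (CA) and then a day held at 25 °C (AA). The members are all probe sets whose single annotated symbol starts with Ugt or Gst, other than GstZ1 and GstZ2, with 1 probe set per gene chosen by its highest mean over the 12 arrays. This gave 65 genes, 33 Ugt and 32 Gst, with 69 probe sets in all, out of 10844 genes that have a probe set of their own among 14010 probe sets. The *y w* strain carries body and eye colour mutations and a functional clock. All flies were raised at 25 °C in darkness up to early pupal stages and then moved to the 12-h 18 °C and 12-h 25 °C cycle. They emerged in that cycle and stayed in it for further days as adults before the CA day was sampled. CA2, CA6 and CA10 were taken at 18 °C (cryophase), CA14, CA18 and CA22 at 25 °C (thermophase), and AA2 to AA22 at the same hours of the following day, when 25 °C was kept throughout (subjective cryophase and subjective thermophase). Each array measured a pool of heads sieved from broken frozen flies, and there was 1 array per time point, so the 3 hours of a phase stand as its replicates.

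Both families make small molecules more soluble in water so that they can be cleared. Ugt enzymes sit in the endoplasmic reticulum membrane and transfer a sugar, mostly glucose in insects, from a UDP-sugar to lipophilic compounds. Gst enzymes join glutathione to reactive compounds, and in flies the delta and epsilon classes grew by local gene duplication and are known for insecticide and oxidative-stress metabolism. Several members of both families are abundant in antennae and other sense organs, where they are thought to clear odorants, and others act in gut, fat body and Malpighian tubules.

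The values are RMA expression levels in log2 units (the base was taken from the range of the values), with array medians between 5.56 and 5.6. Probe sets with more than 6 of 12 values above the array's 20th percentile were tested, 11145 in all, among them 17 Ugt and 30 Gst genes. Markers of head tissue were measured above this filter (10 of 10 photoreceptor and 8 of 10 neuronal markers), and so were markers of the body (72 of 76). The filter does not ask for a signal on every array. An index of body tissue, the mean deviation of 76 markers of gut, muscle, and male gland and testis, fell to -1.40 at CA10, reached 1.11 at CA18 and stayed within -0.38 and 0.74 elsewhere. These marker lists were lower at 18 than at 25 °C in CA (median difference -1.02 for gut with 37 of 38 lower, -0.42 for muscle with 13 of 14 lower, -1.48 for male gland and testis with 20 of 20 lower), while the photoreceptor list was higher (0.42, 10 of 10). Where the index as a covariate, or leaving out CA10 and CA18, moved the CA difference printed for a single member by over 1.5 times, that value is given beside it. In bulk heads, fewer cells of a type and less RNA per cell cannot be told apart.

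Between 18 and 25 °C in CA, the median Ugt difference was close to that of all probe sets, while more Gst genes were lower than higher at 18 °C, by small amounts. Of 17 Ugt genes tested, 13 were higher and 4 lower at 18 °C, with a median difference of 0.04, and of 30 Gst genes 10 were higher and 20 lower, with a median of -0.10, beside a median of 0.05 and 65.4% higher over all 11145 probe sets. With the body-tissue index the medians were 0.07 for Ugt and -0.07 for Gst (0.00 over all probe sets), and without CA10 and CA18 they were 0.06 and -0.09 (0.01 over all). The Gst median was -0.05 without CA6, and -0.05 when 18 °C was set against all 9 arrays at 25 °C. No member passed an adjusted p of 0.05 from limma's moderated test, nor did any other probe set (0%). At an unadjusted p under 0.05 there were 4 of 17 Ugt and 7 of 30 Gst genes, against 21.4% of all probe sets, and at an adjusted p under 0.2 there were 4 and 4, against 15.9%. Leaving out CA22 gave 5 members with an adjusted p under 0.05, namely GstE10 (-0.62), GstS1 (-0.68), GstE6 (-0.31), GstE8 (-0.40) and Ugt36A1 (0.24), but 1988 of 11177 probe sets (17.8%) then passed, so the share of members was not above the background. Values at 18 °C lay entirely above those at 25 °C for 3 Ugt and 1 Gst gene (12.6% of all probe sets) and entirely below for 0 Ugt and 3 Gst genes (5.08%).

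**Figure D1:**
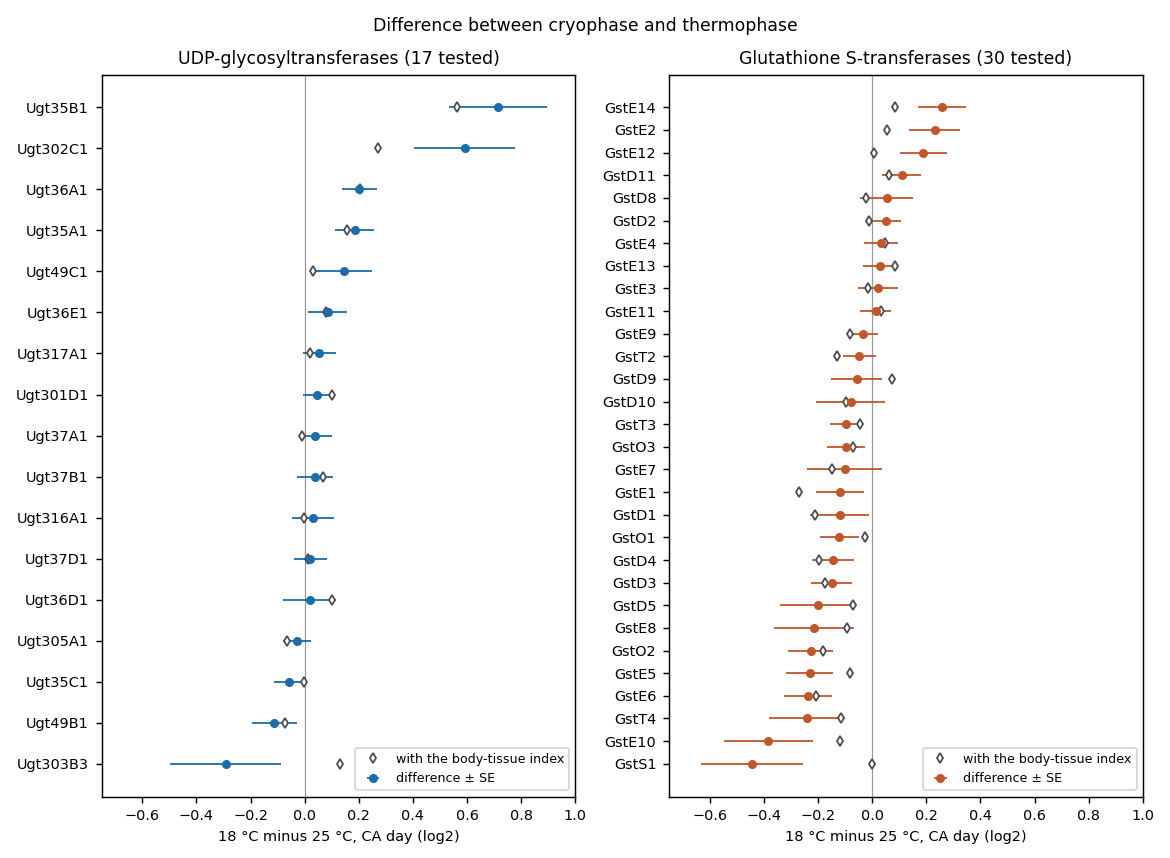
Difference between 18 °C (3 arrays) and 25 °C (3 arrays) on the CA day for each tested member, in log2 units, with bars of 1 standard error from limma and open diamonds for the same difference with the body-tissue index as a covariate. Ugt35B1 (0.71) and Ugt302C1 (0.59) stand at the top of the Ugt family, and GstS1 (-0.44) and GstE10 (-0.38) at the bottom of the Gst family, where the diamonds lie nearer to 0.

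The most cyclic member was Ugt35B1, formerly Ugt35b, a glycosyltransferase first described as enriched in antennae. It measured 9.05 at CA2, 9.34 at CA6 and 9.55 at CA10, then 9.01 at CA14, 8.35 at CA18 and 8.43 at CA22. All 3 cryophase values lay above all 3 thermophase values, with means of 9.31 ± 0.25 and 8.60 ± 0.36 (SD, n = 3 each). The difference was 0.71 (SE 0.18), 1.64-fold, at an adjusted p of 0.169 from limma, and was 0.56 with the body-tissue index and 0.47 without CA10 and CA18. As a 24-h cosine in CA, Ugt35B1 rose and fell with an amplitude of 0.61 (SE 0.06) and a peak at CA8.1, a 2.32-fold range over the day, and its adjusted p of 0.0151 from limma's moderated F test made it the only member among the 41 of 11145 probe sets called (0.368%). Without CA18 the amplitude was 0.56 with an adjusted p of 0.073, without both CA10 and CA18 it was 0.52 (adjusted p = 0.148), and with the body-tissue index, under which 1.72% of all probe sets were called, it was 0.56 (adjusted p = 0.00366). The study's supplementary list, drawn up on data that include these arrays, holds Ugt35B1, so its rhythm here is not independent of that list.

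On the AA day, with no temperature change, Ugt35B1 measured 9.11 at AA2, 9.54 at AA6 and 9.23 at AA10, then 8.76 at AA14, 8.53 at AA18 and 8.83 at AA22. Subjective cryophase values again lay above all subjective thermophase values, by 0.59 (SE 0.18, 1.5-fold, unadjusted p = 0.00741, adjusted p = 0.984 from limma). The cosine of that day had an amplitude of 0.46 (SE 0.06) and a peak at AA6.1, with an unadjusted p of 6.99e-05 and an adjusted p of 0.39, and with the body-tissue index the adjusted p was 0.0471 at an amplitude of 0.44 (0.0538% of all probe sets called). The level thus ran through a peak in the cold or formerly cold hours on both days. The difference between the days was 0.13 (SE 0.26) for the phase contrast, with an adjusted p of 0.959 from limma, which does not show that the days were alike.

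A second probe set of Ugt35B1, which reads the same pools and is no replicate, ran lower on its own scale through 5.63, 5.81, 5.92, 5.56, 5.26 and 5.56 from CA2 to CA22 and 5.82, 6.02, 5.80, 5.57, 5.46 and 5.71 from AA2 to AA22. Its cosines had amplitudes of 0.27 (SE 0.06, peak CA7.2, adjusted p = 0.147 from limma) and 0.25 (SE 0.06, peak AA5.3, adjusted p = 0.985), so peak and trough fell at the same arrays with a smaller range. Antennal markers were higher at 18 °C in CA as well, 8 of 8 tested with a median difference of 0.24, beside 65.4% of all probe sets. Over the 11 measured antennal markers, tested or not, the mean deviation ran from -0.26 on CA18 to 0.14 on CA10. On the AA day 6 of the 8 tested were higher in the subjective cryophase, with a median of 0.05, beside 58.2% of all probe sets. The part of antennal RNA in the Ugt35B1 values was not tested.

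**Figure D2:**
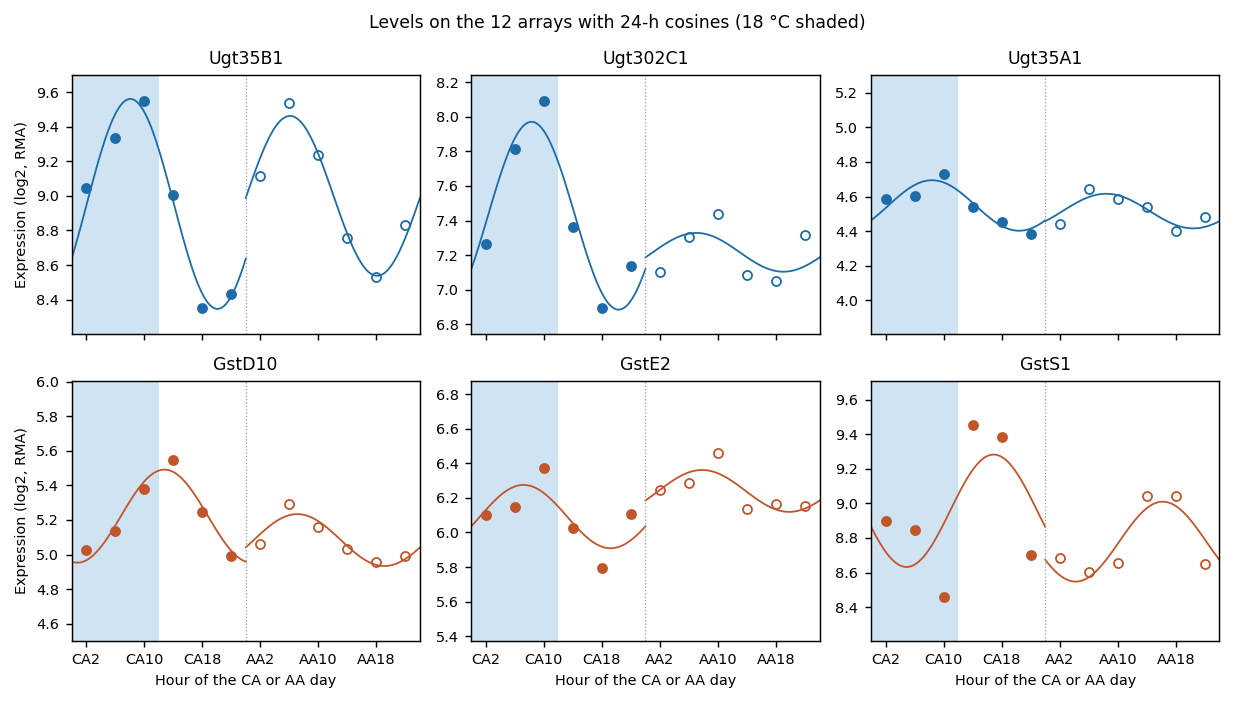
Expression (log2) of 3 Ugt and 3 Gst genes on the 12 arrays, with the 24-h cosine fitted to each day, filled points for CA, open points for AA, 18 °C hours shaded, and a span of equal size on every vertical axis. Ugt35B1 peaked at CA8.1 and AA6.1, GstD10 at CA12.8 and AA7.1, and GstS1 was highest at CA14 and CA18.

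Ugt35B1 lies in a run of 10 Ugt genes, from Ugt35C1 to Ugt303A1, with at most 3 other protein-coding genes between neighbours in the Release 6 annotation, the group formerly named Ugt86D. Of these 10 genes, 4 passed the filter, and 3 of the 4 were higher at 18 °C in CA. Ugt302C1, formerly Ugt86Da, measured 7.26, 7.81 and 8.09 at CA2, CA6 and CA10 and 7.37, 6.90 and 7.14 at CA14, CA18 and CA22. The groups overlapped, since CA2 lay below CA14. The difference was 0.59 (SE 0.19, 1.51-fold, adjusted p = 0.169 from limma), and it was 0.27 with the body-tissue index and 0.29 without CA10 and CA18. As a cosine it had an amplitude of 0.54 (SE 0.09), a peak at CA8.3 and an adjusted p of 0.077, which was 0.0188 with the index at an amplitude of 0.38, and 0.384 without CA10 and CA18 at an amplitude of 0.39. Leaving out CA22 gave an amplitude of 0.66 with an adjusted p of 0.0281, in a fit that called 6.34% of all probe sets.

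The AA day held a much flatter Ugt302C1, at 7.11, 7.31 and 7.44 from AA2 to AA10 and 7.09, 7.05 and 7.32 from AA14 to AA22. Its AA cosine had an amplitude of 0.11 (SE 0.09, adjusted p = 0.985 from limma), and its difference between the days as a cosine had an unadjusted p of 0.0209 and an adjusted p of 0.949. At matched hours, Ugt302C1 was 0.44 higher at 18 °C in CA than at 25 °C in AA (SE 0.19, unadjusted p = 0.0374, adjusted p = 0.811), with overlapping values at AA10 and CA2.

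Neighbouring Ugt35A1, formerly Ugt35a, was highest at CA10 and lowest at CA22 within the CA day. It measured 4.59, 4.61 and 4.73 at 18 °C and 4.54, 4.45 and 4.38 at 25 °C in CA, without overlap, a difference of 0.18 (SE 0.07, adjusted p = 0.187 from limma). Its cosines peaked at CA8.4 and AA8.4 with amplitudes of 0.15 (SE 0.04, adjusted p = 0.217) and 0.10 (SE 0.04, unadjusted p = 0.115). Ugt35C1, the remaining tested gene of the run, stayed between 4.70 and 4.87 on all arrays, with a CA difference of -0.06 (SE 0.06) that was 0.00 with the index and without CA10 and CA18. Ugt35E2, formerly Ugt86De, passed the filter on 0 of 12 arrays, at 3.09, 3.10 and 3.20 at 18 °C and 3.03, 3.09 and 2.76 at 25 °C, and was not tested. Ugt302C1, Ugt35A1 and Ugt35E2 also stand in the study's list, which was chosen on data with these arrays.

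The other 13 tested Ugt genes lie outside that run. Ugt36A1 was the third with separate phases in CA, at 5.81, 5.79 and 5.78 at 18 °C against 5.45, 5.65 and 5.67 at 25 °C. The difference was 0.20 (SE 0.06, adjusted p = 0.169 from limma) and was nearly the same with the index (0.21) and without CA10 and CA18 (0.24). In AA it was higher in the subjective cryophase by 0.11 (SE 0.06, unadjusted p = 0.116), again without overlap. Ugt303B3 ran the other way in CA, at 4.78, 4.47 and 4.41 against 4.72, 5.32 and 4.49, and its difference of -0.29 (SE 0.21, adjusted p = 0.408) became 0.13 with the index and 0.02 without CA10 and CA18. Its value on CA18, where the index was highest, stood 0.66 above its own mean of 12 arrays. Ugt49B1 and Ugt305A1 differed by -0.11 (SE 0.08) and -0.03 (SE 0.05), and both by -0.07 with the index. Without CA10 and CA18 the Ugt305A1 difference was -0.07. The remaining 9 Ugt genes had CA differences between 0.02 and 0.14, none with an unadjusted p under 0.05.

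Among the Gst genes the delta class holds 11 genes in 1 run, from GstD10 to GstD11, of which 9 were tested. In CA, 3 were higher and 6 lower at 18 °C, with a median of -0.08. GstD10, which is also in the study's list, differed little between the phases (-0.08, SE 0.13, adjusted p = 0.726 from limma, and -0.19 without CA10 and CA18). Its high values stood on both sides of the step to 25 °C. It measured 5.03 at CA2, 5.14 at CA6, 5.38 at CA10, 5.55 at CA14, 5.25 at CA18 and 4.99 at CA22, a maximum just after warming. The cosine had an amplitude of 0.27 (SE 0.04), a peak at CA12.8 and an adjusted p of 0.0737, which was 0.0232 with the body-tissue index at the same amplitude, 0.045 without CA22 (1.72% and 6.34% of all probe sets called), 0.328 without CA14 and 0.219 without CA10 and CA18.

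In AA GstD10 reached its maximum earlier, at 5.06, 5.29 and 5.16 from AA2 to AA10 and 5.04, 4.96 and 4.99 from AA14 to AA22. Subjective cryophase values lay above the others by 0.18 (SE 0.13, unadjusted p = 0.199). Its AA cosine peaked at AA7.1 with an amplitude of 0.15 (SE 0.04, unadjusted p = 0.0202, adjusted p = 0.985 from limma). The difference between the CA and AA cosines had the smallest p of all members, 0.00247, and an adjusted p of 0.949.

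GstD1, the delta enzyme best known for DDT metabolism and a common reporter of oxidative stress, was lower at 18 °C by 0.12 (SE 0.11), with an adjusted p of 0.525 from limma, by 0.21 with the index and by 0.23 without CA10 and CA18. It measured 11.05, 10.96 and 11.31 against 11.30, 11.22 and 11.17 in CA. Its cosine in AA had an amplitude of 0.18 (SE 0.06) and a peak at AA14.0 (unadjusted p = 0.0311), and in CA an amplitude of 0.15 and a peak at CA14.9 (unadjusted p = 0.0653). GstD3 was lower at 18 °C without overlap, by 0.15 (SE 0.08, adjusted p = 0.278). GstD11 was higher by 0.11 (SE 0.07) and GstD5 lower by 0.20 (SE 0.14), both with overlapping values, and with the index these differences were 0.06 and -0.07. Probes of such close relatives can bind transcripts of more than 1 gene, so the members of a run are not independent measurements.

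The epsilon class, with 14 genes tested and 10 of them in 1 run from GstE10 to GstE9, was split evenly in CA (7 higher and 7 lower at 18 °C). Within the run 3 were higher and 7 lower, with a median of -0.11. GstE14, known as Noppera-bo and needed for ecdysteroid synthesis, lies apart from the run and was higher in the cryophase. It measured 6.91, 6.92 and 7.15 against 6.79, 6.59 and 6.82, without overlap, a difference of 0.26 (SE 0.09, adjusted p = 0.171 from limma). The difference was 0.08 with the index and 0.11 without CA10 and CA18. GstE12 was higher by 0.19 (SE 0.09), by 0.01 with the index and by 0.08 without CA10 and CA18.

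GstE2, an epsilon enzyme in the study's list, also ran higher in the cold and measured 6.10, 6.15 and 6.37 at 18 °C and 6.03, 5.79 and 6.11 at 25 °C. The difference of 0.23 (SE 0.09, adjusted p = 0.2 from limma) was 0.05 with the index and 0.06 without CA10 and CA18. Its subjective cryophase values in AA, 6.24, 6.28 and 6.46, lay above 6.13, 6.17 and 6.15, by 0.18 (SE 0.09, unadjusted p = 0.088).

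GstE5, GstE6 and GstE10 of the run were lower at 18 °C. GstE6 measured 7.70, 7.65 and 7.72 against 7.99, 8.02 and 7.77, without overlap, a difference of -0.24 (SE 0.09, adjusted p = 0.179 from limma) that remained at -0.21 with the index and without CA10 and CA18. On the AA day it was 0.07 higher in the subjective cryophase (SE 0.09), and the difference between the days of -0.31 (SE 0.12) had an unadjusted p of 0.0309 and an adjusted p of 0.933. GstE5 measured 5.86, 5.70 and 5.57 against 5.87, 6.11 and 5.84, a difference of -0.23 (SE 0.09, adjusted p = 0.182) that was -0.08 with the index and without CA10 and CA18. GstE10 differed by -0.38 (SE 0.17, adjusted p = 0.213), by -0.12 with the index and by -0.25 without CA10 and CA18, with values of 4.88 and 4.89 on CA14 and CA18 and between 4.14 and 4.42 on the other CA arrays. GstE8 reached 4.97 on both CA14 and CA18 and had a cosine amplitude of 0.29 (SE 0.07, peak CA14.9, adjusted p = 0.185).

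GstS1, the sigma enzyme, which is abundant in flight muscle, had the largest CA difference of the 30 tested Gst genes. It measured 8.90, 8.85 and 8.46 at 18 °C and 9.45, 9.38 and 8.70 at 25 °C, a difference of -0.44 (SE 0.19, 1.36-fold, adjusted p = 0.209 from limma). Its lowest and its 2 highest values fell on CA10, CA14 and CA18, the arrays where the muscle markers deviated by -1.13, 0.59 and 0.67. With the body-tissue index the difference was 0.00, without CA10 and CA18 it was -0.21, and without CA22 it was -0.68 (adjusted p = 0.0134). In AA GstS1 differed by -0.27 (SE 0.19, unadjusted p = 0.185).

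The 3 tested omega genes, thiol transferases that also reduce dehydroascorbate, were all lower at 18 °C in CA, by 0.10 to 0.23, and so were the 3 theta genes, with a median of -0.10. GstO2 measured 8.96, 8.71 and 8.68 against 8.95, 9.09 and 9.0, a difference of -0.23 (SE 0.08, adjusted p = 0.177 from limma) with a cosine amplitude of 0.20 (SE 0.05) peaking at CA19.9 (adjusted p = 0.164). A second probe set of GstO2 that passed the filter had a difference of 0.00 (SE 0.07) and a peak at CA13.1, so the 2 probe sets disagree. Without CA10 and CA18 the first differed by -0.14, and GstO1 by 0.00. GstO2 and Ugt305A1 are represented by probe sets that the array design marks as shared between transcripts.

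On the AA day, no member passed an adjusted p of 0.05 in the phase contrast, nor did any probe set (0%). At an unadjusted p under 0.05 there were Ugt35B1 and GstE9, against 2.93% of all probe sets. The medians were -0.01 for both families, beside 0.02 over all. Subjective cryophase values lay entirely above the others for Ugt35B1, Ugt36A1, GstD10, GstD2 and GstE2 (6.64% of all probe sets) and entirely below for Ugt35C1, GstE4, GstE9 and GstO1 (3.71%). GstE9 measured 9.26, 9.21 and 9.38 against 9.42, 9.46 and 9.45, a difference of -0.16 (SE 0.06, unadjusted p = 0.0178). CA and AA differences had the same sign in 11 of 17 Ugt and 18 of 30 Gst genes, 64.7% and 60%, beside 69.6% of all probe sets. The difference between the days was called for 0 members and 0% of probe sets, and at an unadjusted p under 0.05 for 0 Ugt genes and for GstE6 alone of the Gst genes (3.6% of all).

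**Figure D3:**
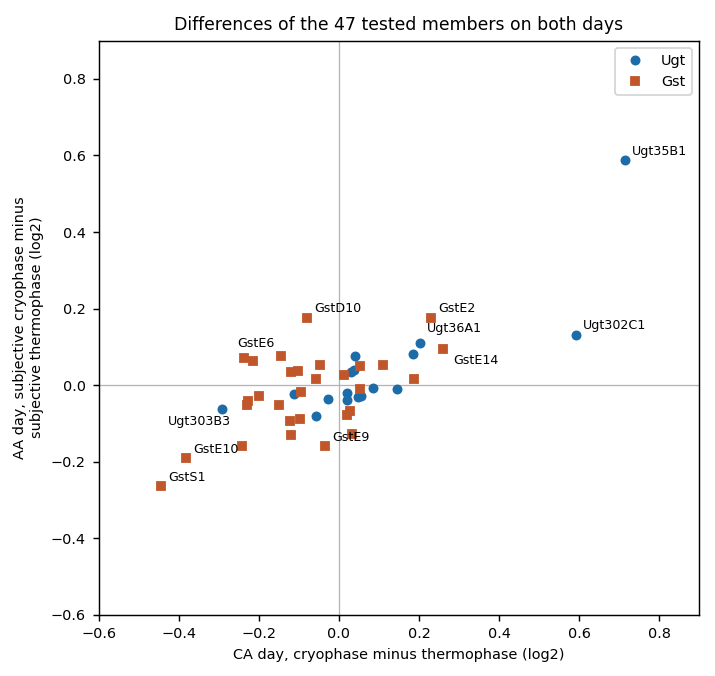
Cryophase minus thermophase difference of the 47 tested members on the CA day (horizontal) and the same hours' difference on the AA day at constant 25 °C (vertical), both in log2 units, circles for Ugt and squares for Gst. Ugt35B1 is far from 0 on both axes (0.71 and 0.59), Ugt302C1 mainly on the CA axis (0.59 and 0.13), and the other members lie between -0.44 and 0.26 on the CA axis and between -0.27 and 0.18 on the AA axis.

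At matched hours, 18 °C in CA was compared with 25 °C in AA at hours 2, 6 and 10. The cryophase arrays of the CA contrast were used again. All 18 °C arrays came from the earlier day, so temperature and day cannot be told apart here. Within CA, temperature and hour cannot be told apart. No member passed an adjusted p of 0.05 in limma (0% of all probe sets), and at an unadjusted p under 0.05 there were 1 Ugt and 5 Gst genes, against 6.01%. Of the 5 Gst genes, GstE5, GstE1, GstE6 (-0.195) and GstD4 (-0.177) were lower at 18 °C, and GstE3 (0.17) was higher. The medians were 0.05 for Ugt and -0.02 for Gst, beside 0.00 over all. GstE5 had the smallest p, with 5.86, 5.70 and 5.57 at 18 °C against 5.91, 6.0 and 6.06 at 25 °C, a difference of -0.28 (SE 0.09, unadjusted p = 0.00877, adjusted p = 0.689). GstE1, an epsilon enzyme, was lower at 18 °C by 0.24 (SE 0.09, unadjusted p = 0.0193), with overlapping values. Ugt36E1 was higher at 18 °C without overlap, at 6.81, 6.94 and 6.74 against 6.69, 6.63 and 6.72, a difference of 0.15 (SE 0.07, unadjusted p = 0.0588). Values at 18 °C lay entirely above those at 25 °C for Ugt36E1, Ugt37D1, GstE12 and GstE3 (7.1% of all probe sets) and entirely below for 0 Ugt genes and for GstE5 and GstE6 (6.33%).

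As 24-h cosines in CA, 5 of 17 Ugt and 8 of 30 Gst genes had an unadjusted p under 0.05, against 19.3% of all probe sets, and 2 and 4 had an adjusted p under 0.2, against 7.42%. The 6 were Ugt35B1, Ugt302C1, GstD10, GstO2, GstE8 and GstE5. Peaks of the Ugt pair lay at CA8.1 and CA8.3, late in the cold, and those of the 4 Gst genes at CA12.8, CA14.9, CA19.5 and CA19.9, all in the warm hours. The GstE5 amplitude of 0.20 was 0.12 with the body-tissue index (adjusted p = 0.44 from limma) and 0.09 without CA10 and CA18 (adjusted p = 0.733). The second GstO2 probe set peaked at CA13.1 (adjusted p = 0.367). In AA no member was called (0% of all probe sets), and 1 Ugt and 4 Gst genes had an unadjusted p under 0.05 in limma's F test, against 3.52%. These were Ugt35B1, GstD1, GstD10, GstD3 and GstE9, with adjusted p from 0.39 for Ugt35B1 to 0.985 for the others. Ugt36D1 had the second smallest p of the Ugt genes in AA. Its values ran from 7.54 at AA22 to 7.92 at AA14. The difference between the CA and AA cosines was called for no member and 0% of probe sets, and had an unadjusted p under 0.05 for Ugt35B1, Ugt302C1 and GstD10, against 3.71%.

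The study's measure of rhythmicity is the 24-h spectral power, F24, which was computed here as the fraction of a profile's variance that a 24-h Fourier term holds. Both that form and the scaling of each day to mean 0 and variance 1 were choices made here. Over both days joined, F24 had a median of 0.31 for Ugt and 0.46 for Gst genes beside 0.31 over all probe sets. Ugt35B1 reached 0.904 and Ugt35A1 0.791, higher than 99.8% and 98.5% of probe sets. GstD1 at 0.729 was the highest of the tested Gst genes. These shares are descriptions and carry no p.

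**Figure D4:**
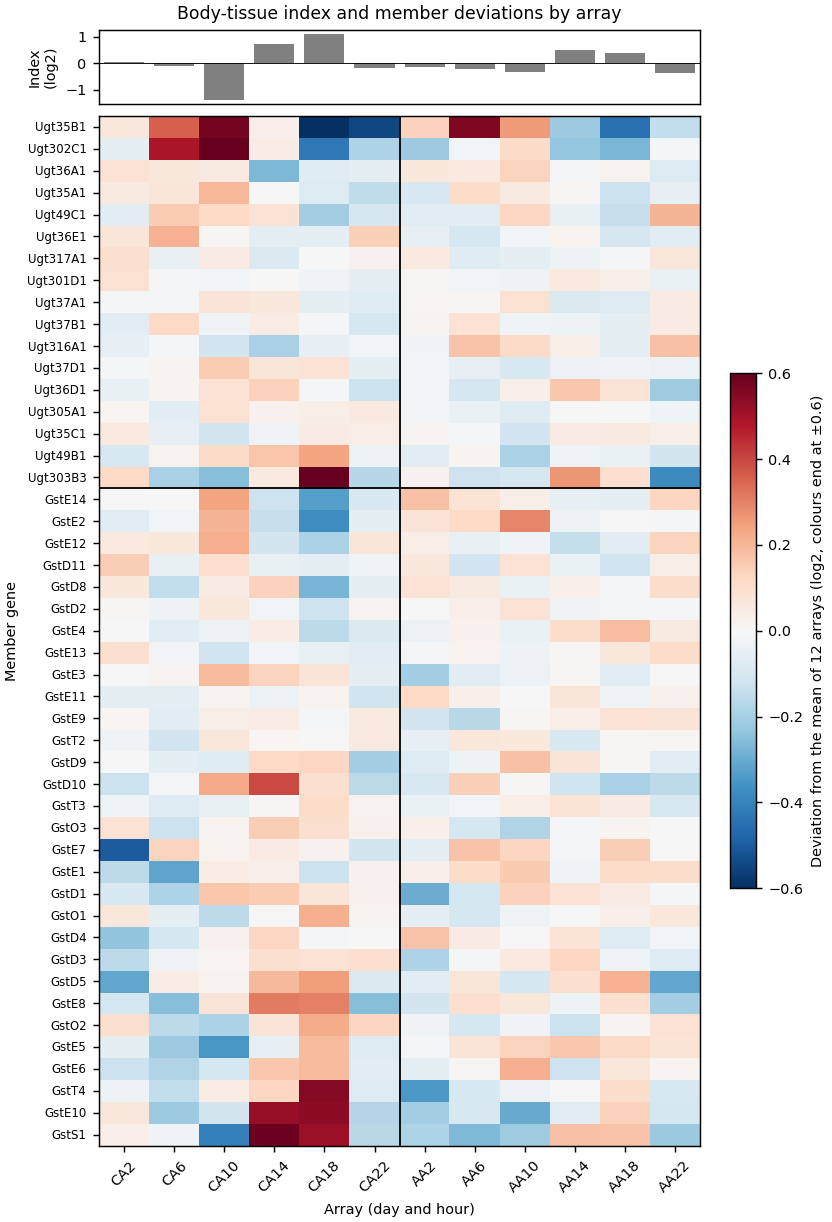
Deviation of the 47 tested members from their own mean over 12 arrays (log2, red above and blue below, colours ending at 0.6), with Ugt genes above the line and Gst genes below it, each ordered by CA difference, and bars for the body-tissue index on top. The first rows of the Ugt block are red at CA6 and CA10 and blue at CA18 and CA22, and the last rows of the Gst block are red at CA14 and CA18, where the index is 0.74 and 1.11.

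Over the 12 arrays the members varied about as much as other transcripts. The range from the lowest to the highest array had a median of 0.35 for Ugt and 0.41 for Gst genes, beside 0.37 over all probe sets, and went up to 1.20 for Ugt35B1 and 1.20 for Ugt302C1. CA10 held the highest value of 5 of 17 Ugt genes and the lowest of 0, against 24.1% and 11.3% of all probe sets. For Gst genes CA10 held the highest value of 5 of 30 and the lowest of 5, and CA18 the highest of 7 and the lowest of 6, against 14.1% and 27.1% of all probe sets on CA18. The family median deviated on no array by more than 0.08.

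Genes that supply or work beside both families were described from lists of named genes. Of 14 tested genes of glutathione supply and redox balance, 13 were lower at 18 °C in CA and 13 lower in the subjective cryophase in AA, with medians of -0.09 and -0.05 and 0 called in either (5 and 2 at an unadjusted p under 0.05 in limma). Over all probe sets, 65.4% were higher at 18 °C in CA and 58.2% in the subjective cryophase in AA. Shares of 21.4% and 2.93% had an unadjusted p under 0.05 in limma in CA and AA. The mean deviation of the 14 genes was -0.11 on CA10, 0.16 on CA14 and 0.26 on CA18, where the body-tissue index was -1.40, 0.74 and 1.11, and the part of body tissue in these values was not tested. Gclm, the modifier subunit of the enzyme that limits glutathione synthesis, measured 8.10, 7.71 and 7.52 at 18 °C and 8.0, 8.20 and 8.15 at 25 °C, a difference of -0.34 (SE 0.12, adjusted p = 0.171). Its cosine peaked at CA20.6 with an amplitude of 0.33 (SE 0.05, adjusted p = 0.077). The catalytic subunit Gclc differed by 0.11 (SE 0.09), and catalase, Cat, by -0.23 (SE 0.09) in CA and -0.20 (SE 0.09) in AA.

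Of 8 tested genes of UDP-sugar supply, 4 were higher and 4 lower at 18 °C, and 0 were called (2 at an unadjusted p under 0.05). UGP, which makes UDP-glucose, was lower by 0.30 (SE 0.13, adjusted p = 0.209 from limma) with a peak at CA14.7, and sgl, which turns UDP-glucose into UDP-glucuronate, differed by 0.08 (SE 0.10). Of 11 tested regulators, epoxide hydrolases, flavin monooxygenases and efflux pumps, 8 were higher and 3 lower at 18 °C, with 0 called in the contrast and 1 in the CA cosine. At an unadjusted p under 0.05 there were 7 of 11 in each, against 21.4% and 19.3% of all probe sets, and 65.4% of all probe sets were higher at 18 °C. The called gene was Fmo-1, a flavin monooxygenase, with an amplitude of 0.27 (SE 0.04), a peak at CA7.5 and an adjusted p of 0.0386 (0.368% of all probe sets called). Its relative Fmo-2 was higher at 18 °C by 0.71 (SE 0.16, adjusted p = 0.169) and in the subjective cryophase by 0.51 (SE 0.16, unadjusted p = 0.00877). Fmo-1, Fmo-2, Mdr49 and Jheh2 of this list, and sll of UDP-sugar supply, also stand in the study's list. That list was chosen on data with these arrays, so their values and the counts that hold them are not independent of it. cnc, the Nrf2 relative that switches on Gst genes under oxidative stress, was lower at 18 °C by 0.23 (SE 0.08, adjusted p = 0.17), and Keap1 differed by 0.06 (SE 0.13).

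The 18 members that did not pass the filter were not tested, and a low signal on these arrays sets no limit on the transcript. They were Ugt302E1, Ugt302K1, Ugt303A1, Ugt303B1, Ugt303B2, Ugt304A1, Ugt307A1, Ugt35E1, Ugt35E2, Ugt36F1, Ugt37A2, Ugt37A3, Ugt37C1, Ugt37C2, Ugt37E1 and Ugt49B2 of the Ugt family, and GstD6 and GstD7 of the Gst family. So 16 of 33 Ugt but 2 of 32 Gst genes fell out, while 8907 of all 10844 genes had a probe set that passed. Of these 18, Ugt36F1, Ugt37A3 and GstD7 were above the 20th percentile on 5, 2 and 6 arrays and the others on 0. Ugt37A2 varied most among them, by 0.94 between CA10 (2.59) and CA18 (3.53), the arrays with the lowest and the highest body-tissue index.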

How the data were processed

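Biotin-labelled cRNA made from RNA of fly heads was hybridised to 12 Affymetrix Drosophila Genome arrays. The authors prepared the deposited log2 values by RMA (its version is not given in the sources used here), so background, array differences and probe sets had been summarised before deposit. Sample labels gave each array its day, hour and temperature. Gene names came from the platform annotation, with 65 of 65 members matched in RefSeq's gene table (Release 6 plus ISO1 MT). Contrasts of 4 groups of 3 arrays and 24-h cosines per day were fitted with limma 3.58.1 in R 4.3.3 over 11145 probe sets (8 and 6 residual degrees of freedom), and p-values were adjusted by Benjamini-Hochberg over all of them, threshold 0.05. They measure the spread between hours, since no hour was repeated, and the number of arrays limits the precision. Members and gene lists were chosen with earlier results of these data known. Genes were named for the study's list, the extreme moderated t in CA (4 per side and family), the smallest p of the other comparisons, or a call. Names outside this rule were chosen after their values were seen, among them GstD3, GstD4, GstD5, GstE3 and GstE10. The fits were run on simulated data with noise drawn independently for each probe set. Those data held no shift shared across an array, such as the body-tissue index shows here, so they do not test the fits against it. Figures were drawn with matplotlib 3.10.9.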

Additional observations from a re-analysis of the deposited data

How the results depend on the processing

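Counts of called members were recomputed under other filters, scalings, priors, probe set rules and array selections. For the CA contrast the count of 0 became 8 with the threshold at 0.2, and with single arrays left out it lay from 0 to 5 (5 without CA22, where 1988 of 11177 probe sets or 17.8% were called). For the CA cosine the count of 1 (41 of 11145 probe sets) became 3 with the body-tissue index (192 of 11145 probe sets), 2 with a trended robust prior (85) and 6 at an adjusted p under 0.2, and 0 without moderation, with the CA day alone, and without CA10 and CA18. With single arrays left out it ranged from 0 (without CA18) to 6 (without CA22, where 709 of 11177 probe sets were called). For the AA cosine the count of 0 became 1 (Ugt35B1) with the index. The Ugt median in AA of -0.01 ranged from -0.014 to 0.029, highest without AA14. The other 252 values for these counts and family medians kept their side of the threshold or moved by less than the spread between arrays. Time of day as a block changed no count. Of the uncalled CA differences, GstD10 changed sign to 0.039 against all 9 arrays at 25 °C and ranged from -0.22 to 0.062 with single arrays left out (positive without CA14), Ugt303B3 became 0.13 with the index and 0.02 without CA10 and CA18, Ugt49B1 and Ugt305A1 became 0.018 and 0.016 against all 9 arrays, Ugt305A1 ranged from -0.066 to 0.011 with single arrays left out, and GstS1 became 0.001 with the index. The causes were not tested.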
